A study of Mus musculus with 5 samples.

Results

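The anterior visceral endoderm (AVE) organizer genes were examined as a group of 10 genes, taken by symbol from the 49671 genes of the count table, and all 10 were found. They encode the secreted inhibitors Cer1, Lefty1, Dkk1 and Sfrp5, the membrane protein Shisa2 and the homeodomain transcription factors Otx2, Lhx1, Hhex, Hesx1 and Gsc. RNA had been sequenced from single mouse embryos of a mixed strain background, dissected at about E6.75 to leave the epiblast with the visceral endoderm (VE). The control group, SO+, held 2 embryos without the Cre transgene that carried a floxed and an intact Oct4 allele (Sox2Cre-/-; Oct4 fl/+). The mutant group, SO−, held 3 embryos with the transgene, a floxed and a null allele (Sox2Cre+/-; Oct4 fl/-). Cre under the Sox2 promoter recombines mainly in the epiblast, so the VE itself was not the intended site of deletion, and no Cre-carrying control was sequenced. A floxed allele was common to all 5 embryos.

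The AVE is a patch of VE on the future head side of the embryo. Its cells arise at the distal tip in response to NODAL, move to one side and secrete inhibitors of NODAL, WNT and BMP, which keep the primitive streak to the opposite side. CER1 binds NODAL and BMP ligands, LEFTY1 blocks the NODAL receptor complex, DKK1 binds the WNT co-receptors LRP5 and LRP6, SFRP5 binds WNT ligands, and SHISA2 holds Frizzled and FGF receptors back in the endoplasmic reticulum. None of the 10 genes is confined to the AVE: Otx2 is also transcribed throughout the epiblast, Lhx1 and Gsc in the anterior primitive streak and its descendants, Cer1 and Hhex in definitive endoderm and Hesx1 in the anterior neural plate. In RNA of epiblast and VE together these sources are summed, and fewer cells of a type and less RNA per cell cannot be told apart.

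The upstream sequences of Cer1, the member that passed the test with all embryos, and of Lhx1 and Gsc, which varied together between embryos, are shown for reference, 5′ to 3′ on the minus strand of GRCm38.p6, from RefSeq start sites. They run at chr4:82885152-82885401, chr11:84525536-84525784 and chr12:104473331-104473486, and stop before the outermost annotated start of each gene. Capitals mark TAATTA, a core bound by LIM and other homeodomain factors, and TATAAA, the letters of a TATA box. In Gsc these letters lay 164 to 159 bases before the RefSeq start.
Cer1: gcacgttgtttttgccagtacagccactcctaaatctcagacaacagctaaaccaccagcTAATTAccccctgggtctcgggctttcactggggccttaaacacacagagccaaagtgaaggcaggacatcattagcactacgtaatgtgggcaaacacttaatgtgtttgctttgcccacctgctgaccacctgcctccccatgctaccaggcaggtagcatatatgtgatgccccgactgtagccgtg
Lhx1: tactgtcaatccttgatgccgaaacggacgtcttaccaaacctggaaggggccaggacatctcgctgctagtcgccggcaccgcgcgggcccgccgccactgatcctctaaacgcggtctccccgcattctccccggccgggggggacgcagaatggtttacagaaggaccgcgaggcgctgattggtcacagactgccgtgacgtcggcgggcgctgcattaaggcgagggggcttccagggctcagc
Gsc: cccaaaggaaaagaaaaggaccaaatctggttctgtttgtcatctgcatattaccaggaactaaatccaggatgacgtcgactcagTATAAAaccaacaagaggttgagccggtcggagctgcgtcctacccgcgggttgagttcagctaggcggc
Promoter windows were listed for 9 of the 10 members, in 12 windows, and 6 motifs were searched on either strand of the 250 bases before each start. TAATTA, which reads alike on either strand, lay in 3 of the 12 windows (Cer1 and Otx2), against 4.84% of all 32851 windows, and 2 of these 3 belonged to Otx2. TAATCC, the site of OTX2 and GSC, lay in 1 of 12 windows (Otx2), against 6.25% of all. TATAAA was found in 3 of 12 windows (Dkk1, Otx2 and Gsc), against 12.4% of all. AATNNACA, the FOXH1 site, lay in 3 of 12 windows (Otx2 and Hesx1), against 10.9%. The Otx2 windows with AATNNACA overlap and hold the same site, so they are not separate matches. Neither the octamer ATGCAAAT of OCT4 (1.60% of all windows) nor CTTTGAT of TCF and LEF factors (3.21%) was found in a member window. These are matches of letters only.

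Counts summed to 27538119 and 27047148 in the SO+ embryos but only to 1117566 to 4191498 in the SO− embryos, so that 3 counts stood for 0.109 to 2.68 CPM (counts per 1e+06 counts). The second sequencing index differed between the genotypes and was shared within each, so index, depth and genotype cannot be told apart. Pou5f1, which encodes Oct4, had 920.2 and 435 CPM in SO+ embryos 1 and 2 and 27.8, 12.5 and 43.7 CPM in SO− embryos 1, 2 and 3. Markers of the VE were present, 19 of 20 passing the expression filter, and summed to between 5611 and 5884 CPM in SO+ and between 5344 and 8195 CPM in SO− embryos. Node and streak genes reached 476 to 708 CPM in SO+ and 559 to 765 CPM in SO− embryos, and extra-embryonic ectoderm markers 16.1 to 18.5 and 16.2 to 21.5 CPM. Of 8 maternal and blood markers, 5 were at 0 in every embryo and the sum was at most 5.73 CPM. Counts were compared with edgeR's quasi-likelihood test over 12067 genes with Benjamini-Hochberg adjustment. Fold changes are log2 values of SO− over SO+.

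All 10 members passed the expression filter. Cer1 was higher in SO− embryos at an adjusted p under 0.05, and no member was lower at that threshold, while 2.35% of all tested genes passed it, 1.42% higher and 0.928% lower. Log2 fold changes were above 0 for 9 of 10 members, the exception being Otx2, and their median was 0.59, against −0.0019 over all tested genes, of which 49.7% were above 0. Values of SO− and SO+ embryos did not overlap for 5 members, and for 29.5% of all tested genes. Of these, Cer1, Dkk1, Hhex and Hesx1 were higher in every SO− embryo, as were 13.9% of all tested genes, and Otx2 was lower in every SO− embryo, as were 15.6%.

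**Figure D1:**
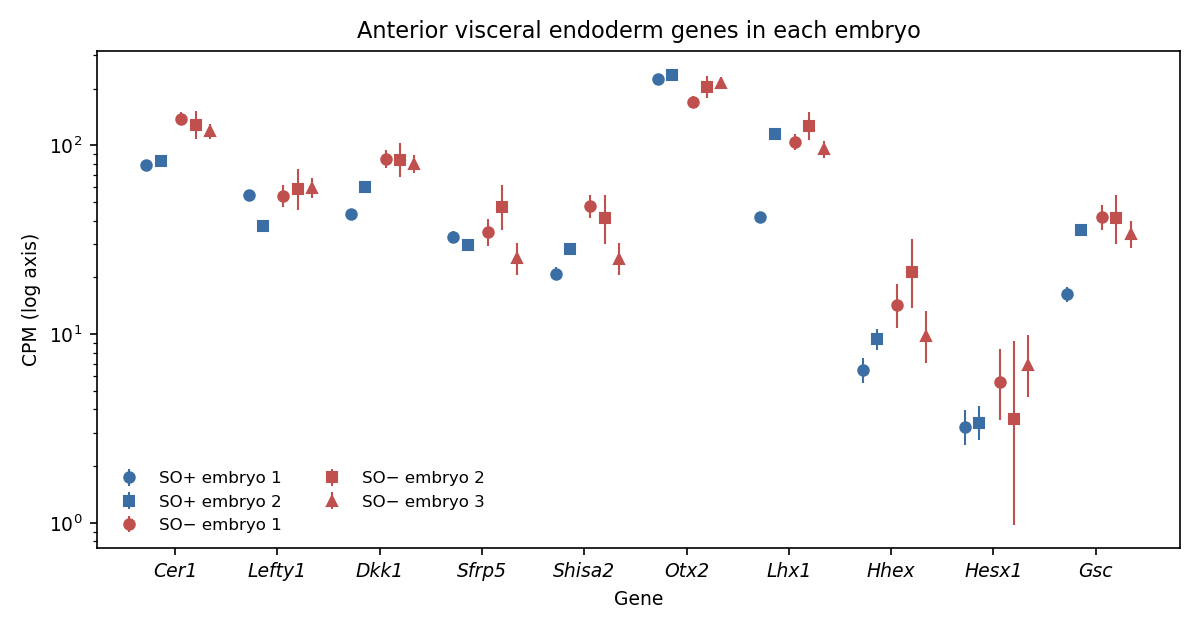
Levels of the 10 genes in CPM on a log axis, one point per embryo (SO+ blue, SO− red), with bars giving exact 95% Poisson intervals for counting error. Cer1 and Dkk1 sit higher in all 3 SO− embryos, Otx2 sits slightly lower, and SO+ embryo 1 is lowest for Lhx1 and Gsc.

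Among the secreted inhibitors, Cer1 (ENSMUSG00000038192, chromosome 4 from 82881751 to 82885148 on GRCm38) had 78.3 and 82.4 CPM in SO+ against 139, 129 and 119 CPM in SO− embryos 1, 2 and 3. Embryos of one genotype lay close together, and the lowest SO− value was well above the highest SO+ value. Means were 80.4 ± 2.91 CPM (SD, n = 2) and 129 ± 10.1 CPM (SD, n = 3). Its log2 change was 0.69 ± 0.13 (standard error), with an adjusted p of 0.0126 by edgeR, 5.76e-04 by DESeq2 and 0.0437 by limma-voom. The direction was the same whichever embryo was left out, between 0.61 and 0.74, and without SO+ embryo 1 the change was 0.64. The adjusted p from edgeR rose to 0.174 without SO− embryo 1 and to 0.137 without SO− embryo 2. Calls over all tested genes fell to 0.320% and 0.243% in these fits. Without SO− embryo 3 the adjusted p from edgeR was 0.0251, with 1.83% of all tested genes called.

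Dkk1 (ENSMUSG00000024868, chromosome 19 from 30545863 to 30549665) had 43.2 and 60.2 CPM in SO+ against 84.9, 84.1 and 80.2 CPM in SO−. The SO− embryos were nearly alike and all lay above the SO+ embryos, which differed 1.39-fold. Means were 51.7 ± 11.98 CPM (SD, n = 2) and 83.1 ± 2.54 CPM (SD, n = 3). Dkk1 had an adjusted p of 0.0523 from edgeR, 0.0183 from DESeq2 and 0.186 from limma-voom. The log2 fold change was 0.69 (standard error 0.17), as large as that of Cer1. Without SO+ embryo 2 it was 0.95 (edgeR adjusted p = 0.00316), and without SO+ embryo 1 it was 0.46 (edgeR adjusted p = 0.384).

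Lefty1 (ENSMUSG00000038793, chromosome 1 from 180935022 to 180938400) had 54.7 and 37.5 CPM in SO+ against 53.9, 59.1 and 59.6 CPM in SO−. Only SO+ embryo 2 stood below the rest. Its log2 change was 0.32 ± 0.19 (standard error, adjusted p = 0.494, edgeR), and it was 0.076 without SO+ embryo 2. Its relative Lefty2, which is transcribed in the streak and nascent mesoderm, ran the opposite way in the SO+ pair, with 25.6 and 92.1 CPM, and had 75.7, 99.3 and 32.9 CPM in the SO− embryos. Lefty1 and Lefty2 are close paralogs, and how the counting treated reads that match more than one gene is not given in the sources used here.

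Sfrp5 (ENSMUSG00000018822, chromosome 19 from 42197971 to 42202252) had 32.9 and 29.6 CPM in SO+ against 34.8, 47.4 and 25.3 CPM in SO−, which spread to either side of the SO+ values. Its log2 change was 0.14 ± 0.23 (standard error, adjusted p = 0.881, edgeR), and its sign turned without SO− embryo 2 (−0.048). Shisa2 (ENSMUSG00000044461, chromosome 14 from 59625308 to 59631660) had 20.95 and 28.4 CPM in SO+ against 47.6, 41.2 and 25.1 CPM in SO−. SO− embryo 3 fell within the range of the SO+ embryos, and the other SO− embryos lay above it. The log2 fold change of Shisa2 was 0.61 (standard error 0.26, edgeR adjusted p = 0.317).

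Of the transcription factors, Otx2 (ENSMUSG00000021848, chromosome 14 from 48657677 to 48673819) had the highest CPM. Otx2 drives the movement of the AVE and later forebrain development. It had 225 and 235 CPM in SO+ against 170.0, 204 and 214 CPM in SO−, so that every SO− embryo was below both SO+ embryos by a small margin. Its log2 change was −0.23 ± 0.12 (standard error, adjusted p = 0.449, edgeR), and leaving out single embryos gave −0.32 to −0.14. The antisense gene Otx2os1 overlaps its exons, but had at most 7 counts in any embryo, against at least 228 for Otx2. Epiblast markers, which share a tissue with Otx2, also had lower sums in SO− (2782 to 3973 CPM) than in SO+ embryos (5404 to 6316 CPM). Dnmt3b led this sum, with 3983 and 3263 CPM in SO+. Of the 11 markers, 7 had a log2 fold change below 0, while Sox2 (0.56), Fgf5 (0.38), Epcam (0.036) and Nanog (0.018) were above 0. The part of epiblast content in the Otx2 values was not tested.

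The ratio of Cer1 to Otx2 counts within an embryo needs no scaling between libraries. For each Otx2 count there were 0.348 and 0.351 Cer1 counts in the SO+ embryos (95% exact intervals 0.331 to 0.366 and 0.334 to 0.368). The SO− embryos had 0.817, 0.632 and 0.553 Cer1 counts per Otx2 count, with intervals of 0.730 to 0.913, 0.509 to 0.782 and 0.494 to 0.618, all above those of the SO+ embryos. These intervals cover counting error only, and the ratio was chosen after its values were seen. Per kilobase of exon, Otx2 ranked above Cer1 in the SO+ embryos (54.5 against 46.2 CPM per kilobase on average) and below it in the SO− embryos (46.5 against 74.0). Otx2 had the higher CPM in every embryo, so the order in SO− embryos rests on the annotated exon lengths used (4221 and 1739 bases).

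**Figure D2:**
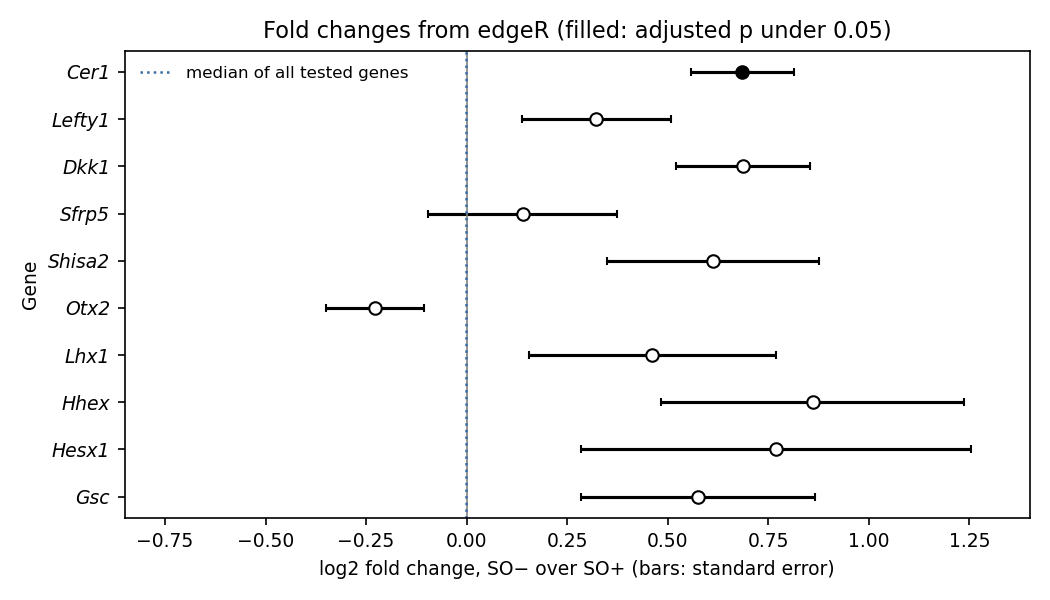
Log2 fold changes of SO− over SO+ embryos from edgeR for the 10 genes, with bars giving 1 standard error and the dotted line the median of all tested genes. Filled points mark an adjusted p under 0.05, which Cer1 reached at 0.69, while Otx2 at −0.23 is the only point left of 0.

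Lhx1 (ENSMUSG00000018698, chromosome 11 from 84518284 to 84525535), which encodes a LIM homeodomain factor needed for head formation, had 41.9 and 114 CPM in SO+ embryos 1 and 2 and 105, 127 and 95.2 CPM in the SO− embryos. The SO− embryos lay around SO+ embryo 2, and SO+ embryo 1 stood apart below all of them. Gsc (ENSMUSG00000021095, chromosome 12 from 104471209 to 104473330), a homeobox gene of the organizer, had 16.3 and 35.8 CPM in SO+ against 41.8, 41.2 and 33.9 CPM in SO−, again with SO+ embryo 1 alone below the rest. Lhx1 was 2.72-fold and Gsc 2.20-fold higher in SO+ embryo 2 than in SO+ embryo 1, while 3.03% of tested genes were at least 2-fold higher in embryo 2 and 3.54% at least 2-fold lower. No other member differed by as much as 2-fold between these embryos.

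The genotype difference of Lhx1 and Gsc rested on which SO+ embryo was used. With all embryos, the log2 fold changes were 0.46 for Lhx1 (standard error 0.31, edgeR adjusted p = 0.580) and 0.58 for Gsc (standard error 0.29, edgeR adjusted p = 0.420). Against SO+ embryo 1 alone, Lhx1 was higher by 1.36 (edgeR adjusted p = 2.98e-05) and Gsc by 1.26 (edgeR adjusted p = 0.00535), in a fit that called 4.50% of all tested genes. Against SO+ embryo 2 alone, the values were −0.098 (edgeR adjusted p = 0.966) and 0.11 (edgeR adjusted p = 0.979). In these fits the lone SO+ embryo was assumed to vary like the SO− embryos.

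The ratio of Gsc to Lhx1 counts varied less between embryos than either gene did. It was 0.388 and 0.313 in the SO+ embryos and 0.400, 0.324 and 0.356 in the SO− embryos. Intervals for counting error overlapped among the SO− embryos and not between the SO+ embryos (0.347 to 0.433 and 0.291 to 0.337). Because both genes were lowest in SO+ embryo 1, a steadier ratio over all embryos follows from the choice of pair. Among the SO− embryos alone, Lhx1 spread only 1.33-fold and Gsc 1.24-fold.

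Several genes of the node and anterior streak, picked after their values were seen, also differed within the SO+ pair. The BMP antagonist Chrd had 5.08 and 21.4 CPM in SO+ embryos 1 and 2 and 22.3, 40.3 and 38.7 CPM in the SO− embryos. Foxa2, a forkhead factor of node, endoderm and AVE, had 36.1 and 76.8 CPM in SO+ against 73.3, 104 and 84.2 CPM in SO−. Noto, a notochord homeobox gene, had 0.472 and 2.40 CPM in SO+ against 4.35, 5.37 and 3.34 CPM in SO−. All of these were lowest in SO+ embryo 1, like Lhx1 and Gsc. Among the streak genes, Eomes was lowest in that embryo too, but only narrowly, with 209 and 252 CPM in SO+ and 214, 277 and 228 CPM in SO−. Neither T (38.7 and 35.5 CPM, then 82.7, 55.5 and 32.9 CPM) nor Mixl1 (159 and 281 CPM, then 186, 171 and 129 CPM) shared this order, each being lowest in SO− embryo 3. Of the 9 tested genes on the node and streak list, Sox17 alone was called, higher in SO− embryos (1.33, edgeR adjusted p = 0.0365), and the median log2 fold change was 0.60. Nog, a BMP antagonist of the node, ran the other way in the SO+ pair, with 2.47 and 1.22 CPM. Of the VE markers, Gata6 had 15.5 and 47.7 CPM in SO+ against 57.3, 80.5 and 39.1 CPM in SO−. The other VE markers differed less within the SO+ pair. Slc2a2 (24.0 and 40.6 CPM) and Gata4 (67.3 and 103 CPM) rose, and Amn (173 and 186 CPM) and Afp (607 and 567 CPM) differed little. Of these others, Apoe (1802 and 1578 CPM), Spink1, Cubn, Trf, Fgb and Afp were lower in SO+ embryo 2, and the rest were higher. The VE markers summed to 5611 and 5884 CPM with Gata6 included. The part of node and streak tissue in the values of Lhx1 and Gsc was not tested.

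**Figure D3:**
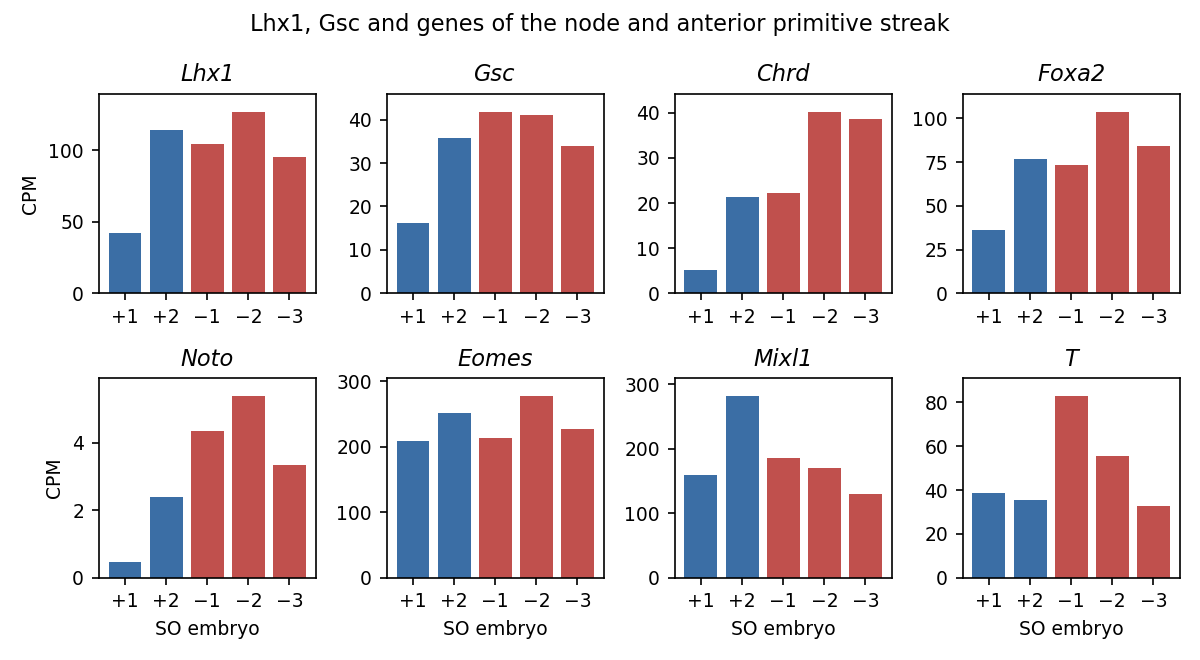
CPM of Lhx1, Gsc and 6 genes of the node and primitive streak, one bar per embryo in the order SO+ 1 and 2 (blue) and SO− 1, 2 and 3 (red), each panel with its own axis from 0. SO+ embryo 1 has the lowest bar for Lhx1, Gsc, Chrd, Foxa2 and Noto, at 41.9 CPM against at least 95.2 for Lhx1, and narrowly for Eomes, but not for Mixl1 or T.

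Hhex and Hesx1 had the lowest levels. Hhex (ENSMUSG00000024986, chromosome 19 from 37434810 to 37440731), a repressor with early expression in the AVE, had 6.46 and 9.39 CPM in SO+ against 14.3, 21.5 and 9.78 CPM in SO−. SO− embryo 3 was barely above SO+ embryo 2, and counts in the SO− embryos were only 59, 24 and 41. Its log2 change was 0.86 ± 0.38 (standard error, adjusted p = 0.330, edgeR), the largest estimate in the group, with an error exceeded only by that of Hesx1. Hesx1 (ENSMUSG00000040726, chromosome 14 from 26994416 to 27002329), a homeobox repressor of the AVE and anterior neural plate, had 3.23 and 3.40 CPM in SO+ against 5.56, 3.58 and 6.92 CPM in SO−. SO− embryo 2 had 4 counts, for which the 95% Poisson interval of 0.975 to 9.16 CPM takes in every other value. The log2 fold change of Hesx1 was 0.77 (standard error 0.49, edgeR adjusted p = 0.554), and 0.92 (edgeR adjusted p = 0.528) without that embryo.

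**Figure D4:**
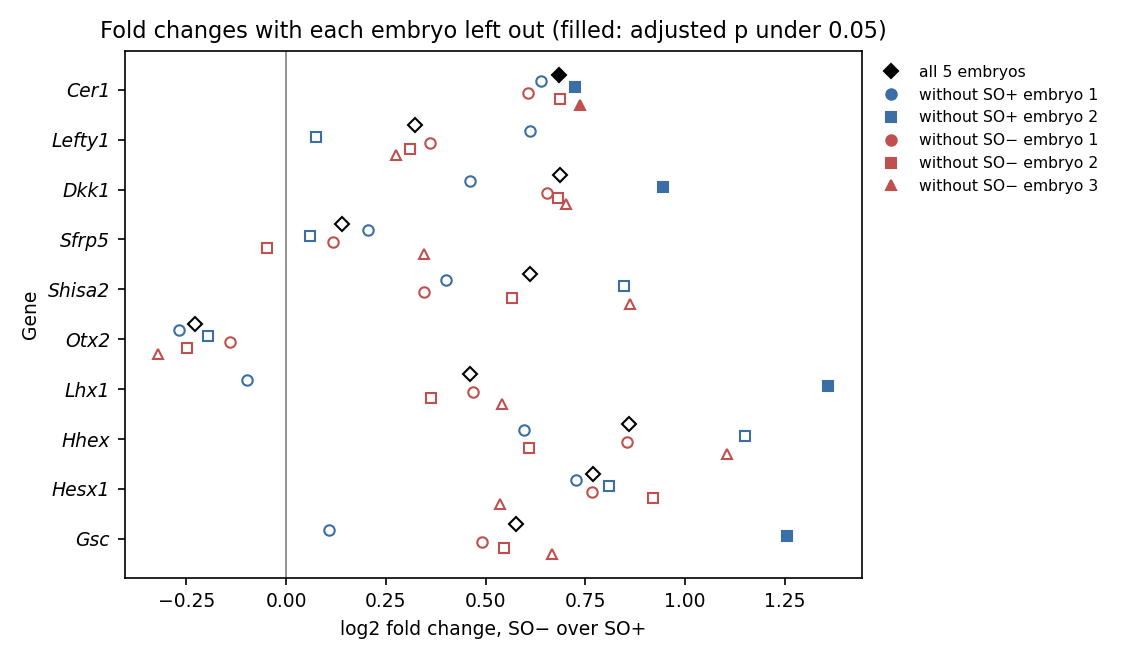
Log2 fold changes of SO− over SO+ embryos with all 5 embryos and with each embryo left out, filled where the adjusted p from edgeR was under 0.05. Lhx1 runs from −0.098 without SO+ embryo 1 to 1.36 without SO+ embryo 2, whereas Cer1 stays between 0.61 and 0.74 and Otx2 between −0.32 and −0.14.

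On the scale of CPM per kilobase of exon, the order of mean levels in SO+ embryos was Otx2, Cer1, Lefty1, Dkk1, Gsc, Lhx1, Sfrp5, Shisa2, Hesx1 and Hhex. This order depends on the length used, which takes in all annotated exons and not the transcript present. It was 5056 bases for Hhex and 1248 for Hesx1, and in CPM the SO+ mean of Hhex (7.93) was above that of Hesx1 (3.32). Otx2 (53.3 to 55.7) and Cer1 (45.0 to 47.4) stood apart from each other and from all others, and so did Shisa2 (5.71 to 7.72), Hesx1 (2.59 to 2.73) and Hhex (1.28 to 1.86). From Lefty1 to Sfrp5, the ranges of neighbours in this order overlapped. In SO− embryos Cer1 came first (68.2 to 79.8) and Otx2 second (40.3 to 50.8). They were followed by Dkk1, Lefty1, Gsc and Lhx1, whose neighbouring ranges overlapped, between 23.4 and 35.0. Sfrp5 (13.3 to 25.0) reached into the range of Lhx1, Shisa2 stood lower (6.82 to 12.98), and Hesx1 (2.87 to 5.54) and Hhex (1.93 to 4.25) overlapped. On the log2 CPM scale, Dkk1 was the member whose profile over the 5 embryos was nearest to that of Cer1, with a root mean square difference of 0.14, and Otx2 was the farthest, at 0.48. Among 9150 genes compared, Dkk1 came at rank 87, and the closest were Pura (0.054), Krcc1 (0.055) and Gpx4 (0.056).

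Since the AVE is part of the VE, members were also set against VE markers of the same embryo. Of 19 VE markers tested, 17 had a log2 fold change above 0, with a median of 0.38, and 1 was called, Spink1 (0.63, edgeR adjusted p = 0.00580). Their summed level was 5611 and 5884 CPM in SO+ against 8028, 8195 and 5344 CPM in SO−, so that SO− embryo 3 was the lowest of all 5 and the other SO− embryos the highest (mean log2 difference 0.30, two-sided exact permutation p = 0.4, where 0.1 is the lowest that 10 splits allow). Apoe led this sum, with 1802 and 1578 CPM in SO+ and 2139, 2305 and 1548 CPM in SO−. Not all markers shared its order. Hnf4a (29.8 and 44.1 CPM in SO+, 46.5 CPM in SO− embryo 3) and Spink1 (258 and 241 CPM, then 371 CPM) were higher in SO− embryo 3 than in either SO+ embryo. Amn and Cubn were lower there, as Apoe was. Relative to this sum, Cer1 made 1.396% and 1.401% in the SO+ embryos and 1.73%, 1.57% and 2.22% in the SO− embryos. Dkk1 made 0.771% and 1.02% in the SO+ embryos and 1.06%, 1.03% and 1.50% in the SO− embryos, where the genotypes nearly met. Cer1, Dkk1 and Hhex were the members with higher values in every SO− embryo on this scale, as were 4.22% of all tested genes, and no member was lower in every SO− embryo, as 20.5% of all tested genes were. Otx2 made 4.01% and 3.99% in the SO+ embryos and 2.12%, 2.49% and 4.01% in the SO− embryos, and thus overlapped.

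With libraries scaled to the VE markers, the median log2 fold change of the members was 0.30, while the median of all tested genes shifted to −0.27, and no member was called. Cer1 was then 0.40 (edgeR adjusted p = 0.780). The SO− embryo with the low marker sum weighed heavily on this scale: without it Cer1 was 0.25, the median of the members was 0.13 and Otx2 was lower by 0.81 (edgeR adjusted p = 0.00129), against a median of −0.50 over all tested genes, of which 35.5% were called on that scale. The part of VE content in the member values was not tested further.

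**Figure D5:**
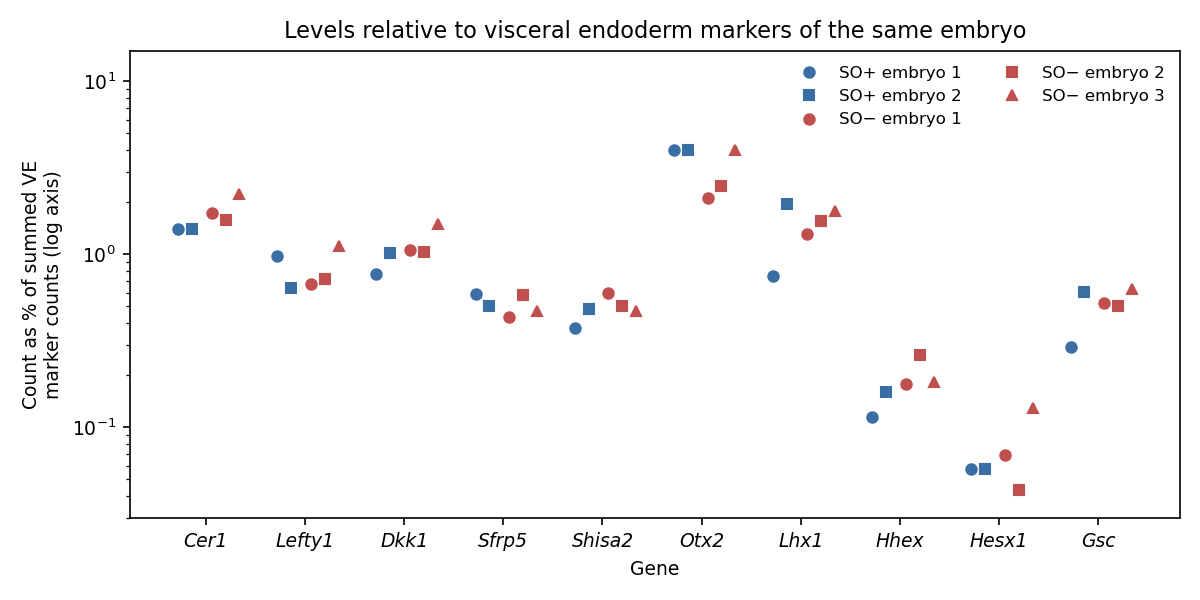
Counts of the 10 genes as a percentage of the summed counts of 20 VE markers in the same embryo, on a log axis, one point per embryo. Cer1 remains higher in the SO− embryos (at least 1.57% against at most 1.401%), Otx2 in SO− embryo 3 equals the SO+ embryos at 4.01%, and SO+ embryo 1 remains lowest for Lhx1 and Gsc.

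Other components of the pathways that the AVE acts on were counted by list, where 2.35% of all tested genes were called. Of 18 further secreted inhibitors, 10 were tested, with a median log2 fold change of 0.17. The BMP inhibitor Bmper was called higher (1.67, edgeR adjusted p = 0.0205) and the activin inhibitor Fst lower (−2.08, edgeR adjusted p = 2.12e-04). The WNT inhibitor Frzb had 14.9 and 74.7 CPM in SO+ against 151, 151 and 112 CPM in SO−, without passing the test, and is another gene that was low in SO+ embryo 1. Of 15 NODAL components, 14 were tested, and the co-receptor gene Cfc1 was called higher (0.96, edgeR adjusted p = 0.0495), with a median of −0.082. Nodal itself had 61.5 and 47.9 CPM in SO+ against 46.9, 47.4 and 48.4 CPM in SO−, and lay within 1 CPM of SO+ embryo 2 in each of them. Of 16 WNT components, 14 were tested. Wls, which carries WNT proteins to the cell surface, was called higher (0.87, edgeR adjusted p = 0.0213). The ligand gene Wnt8a was called lower (−2.59, edgeR adjusted p = 0.0118), with 8, 3 and 5 counts in SO− embryos 1, 2 and 3. By limma-voom, Fst passed the threshold (adjusted p = 0.0140), but Bmper (0.0587), Cfc1 (0.112), Wls (0.142) and Wnt8a (0.181) did not. Of the DKK1 co-receptor genes, Lrp5 had 66.9 and 68.4 CPM in SO+ against 93.4, 106 and 78.7 CPM in SO−, higher in every SO− embryo without passing the test (0.44, edgeR adjusted p = 0.187), and Lrp6 had 37.5 and 30.4 CPM in SO+ against 40.4, 34.9 and 37.7 CPM in SO−.

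Of 14 genes with a role in the formation or movement of the AVE, all were tested, 13 had a log2 fold change above 0 with a median of 0.16, and Sox17 and Amot were called higher. Amot, which encodes angiomotin and is needed for normal VE movement, had 198 and 266 CPM in SO+ against 413, 498 and 345 CPM in SO−. All SO− embryos lay above the SO+ embryos (0.85, standard error 0.16, edgeR adjusted p = 0.0125). By limma-voom neither Amot (adjusted p = 0.0865) nor Sox17 (adjusted p = 0.186) passed the threshold. Ldb1, a cofactor gene of LIM homeodomain factors such as LHX1, lay close between genotypes, with 28.2 and 29.0 CPM against 27.6, 32.2 and 25.3 CPM. Of 11 relatives of the members, 6 were tested and none was called, the lowest p being that of Otx1 (1.50, edgeR adjusted p = 0.0871), a close relative of Otx2. Otx1 had 3.12 and 7.21 CPM in SO+ against 15.5, 16.1 and 12.6 CPM in SO−, higher in each SO− embryo. The 11 epiblast markers had a median of −0.84, with 4 called lower (Utf1, Dnmt3b, Slc7a3 and L1td1) and none higher. They did not share a direction, as Sox2 (0.56), Fgf5 (0.38), Epcam (0.036) and Nanog (0.018) had log2 fold changes above 0 that did not pass the test. None of 4 tested extra-embryonic ectoderm, 5 parietal endoderm or 1 maternal marker was called, the lowest p in each being that of Cdx2 (0.51, edgeR adjusted p = 0.801), Lamb1 (0.36, adjusted p = 0.213) and Pecam1 (2.33, adjusted p = 0.411).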

How the data were processed

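RNA-seq libraries of 2 SO+ and 3 SO− embryos, each from 1 embryo, were grouped by the sample labels. Raw counts for 49671 genes were deposited, which the authors had made with HTSeq-count on Ensembl 87 genes after adapter trimming (cutadapt) and STAR alignment (GRCm38/mm10). Strand and duplicate handling are not given in the sources used here, and without molecular identifiers intervals cover counting error only. Coordinates and exon lengths came from GENCODE M21 on GRCm38, which matched 99.5% of genes, and promoters from RefSeq (GRCm38.p6). An exon length counts every base in any annotated exon of the gene once.

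Counts were analysed in R 4.3.3 with edgeR 4.0.16 (TMM scaling, filterByExpr and the quasi-likelihood test on genotype alone). Genes were called at an adjusted p under 0.05, and the standard error is the absolute log2 fold change over the square root of F. CPM uses total counts. DESeq2 1.42.0, limma-voom (limma 3.58.1), other scalings and filters, thinning (median of 10 draws), a replicate block and each embryo left out were alternatives, and the script was tested on simulated data. The text names all members, called genes of the other lists or, where there was none, the gene of lowest p, and the 3 genes nearest to Cer1 whose mean log2 CPM reached 3. Otx2os1, Lefty2, Chrd, Foxa2, Noto, T, Eomes, Mixl1, Frzb, Nodal, Nog, Gata6, Sox2, Fgf5, Epcam, Nanog, Lrp5, Lrp6 and Ldb1 were named after their values were seen. The same holds for the VE markers, other than Spink1, named beside Gata6 and beside the VE sum. A further gene list is not reported here. Members and lists were chosen with earlier results of these data known.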

Additional observations from a re-analysis of the deposited data

How the results depend on the processing

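Over 15 alternatives, 149 values of single members were recomputed: 128 kept their direction and side of the threshold, 11 passed it that had not, 5 no longer passed it and 5 changed sign. Otx2 was below 0 and Cer1, Dkk1, Shisa2, Hhex, Hesx1 and Gsc above 0 in every alternative that tested them. The values that changed sign were Lhx1 without SO+ embryo 1 (−0.098, up to 1.36 with single embryos left out), Sfrp5 without SO− embryo 2 (−0.048, up to 0.34 likewise), Sfrp5 scaled to the VE markers (−0.15, and −0.15 with SO− embryo 3 left out as well) and Lefty1 on that last scale (−0.22). Over all genes 283 were called, but 91 with limma-voom, 929 with a replicate block, between 35 and 573 with each embryo left out, and 4279 with VE scaling and SO− embryo 3 left out, an alternative chosen after the data were seen, under which 4132 were lower and 147 higher. The cause was not tested, beyond the shift of all genes that this scaling makes. Called members numbered 2 with DESeq2, where 3.26% of all tested genes were called (393), and 2 with at least 10 counts in every embryo, where 2.71% were. These were Cer1 and Dkk1 in each. With VE scaling 0 were called, with 2.10% of all tested genes. Calls over all genes also fell when single SO− embryos were left out. Without SO− embryo 1, 0 members and 0.320% of all tested genes were called, and without SO− embryo 2, 0 members and 0.243%. Without SO− embryo 3, 1 member was called (Cer1), with 1.83% of all tested genes. The median log2 fold change of the members was 0.30 with VE scaling, 0.13 with SO− embryo 3 also left out, and between 0.43 and 0.83 with each embryo left out. With the replicate block the median was 0.75 and 6 members were called (Cer1, Dkk1, Shisa2, Lhx1, Hhex and Gsc), with 7.70% of all tested genes. No SO+ embryo had number 3, so SO− embryo 3 did not bear on the genotype estimates of this fit. Those rested on the embryos numbered 1 and 2 of each genotype. A shared number links embryos that are separate animals. Their deviations from the group means correlated at 0.0077 for number 1 and 0.11 for number 2. SO+ embryo 1 and SO− embryo 3, of unlike number, correlated at 0.13. The deviations of the 2 SO+ embryos mirror each other, so this check cannot decide whether the numbers mark a pairing. SO− embryo 2, with 1117566 counts, had 4 counts of Hesx1 and 24 of Hhex.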
